A study of Danio rerio with 6 samples.

Results

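Hepatocyte identity is held by a small set of transcription factors that bind each other's genes as well as the genes of liver function. The 9 genes described here were listed by symbol: the nuclear receptor hnf4a, the forkhead factors foxa2 and foxa3, the basic leucine zipper factors cebpa and cebpb, the homeobox factors prox1a and onecut1, and the NR5A nuclear receptors nr5a2 and nr5a5. All 9 of the 9 symbols were found among the 30954 named genes of the table. Of these, 8 passed the filter on low counts that left 12889 genes, and onecut1 did not.

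Messenger RNA was sequenced from livers of 3 zebrafish samples with an scd knockout made by CRISPR-Cas9 and of 3 wild-type (WT) samples, all kept at 28 °C. The gene scd encodes stearoyl-CoA desaturase, which makes monounsaturated from saturated fatty acyl-CoA, and the comparison asks how liver expression differs without it. The sources used here do not give the allele, the number of mutant lines, sex, age, feeding state, sampling date or whether a library holds 1 fish or several. Separate animals are not stated either, so a p-value reflects the spread among these 6 libraries, part of which may be technical.

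In the liver, HNF4A drives genes of lipoprotein, coagulation and glucose metabolism, and FOXA factors open chromatin at liver enhancers. C/EBP alpha and C/EBP beta act on genes of gluconeogenesis, urea synthesis and the acute phase, and their own transcription follows hormones, feeding and inflammation. PROX1 and ONECUT1 act in early hepatoblasts and remain in hepatocytes or bile duct cells, as is known from mouse. NR5A2, also called LRH-1, acts on bile acid and cholesterol genes in mammalian liver. The gene nr5a5, listed by RefSeq with the older name ff1c, is a further member of the NR5A family in zebrafish. No role of it in adult liver is assumed here.

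The libraries differed in more than genotype. Total counts were 22971108 to 26021730 in mutant and 22736924 to 25546642 in WT libraries. Unless stated, levels are counts per 1000000 after TMM scaling, which sets libraries to a common level for most genes, and are written CPM. The targeted transcript, scd, had 693, 111 and 56.7 CPM in mutant replicates 1 to 3, against 30.3, 18.1 and 431 CPM in WT replicates 1 to 3, so its level does not check the labels. Vitellogenins, the yolk precursors of egg-laying females, took 57.3%, 57.3% and 0.0433% of counts in mutant replicates 1 to 3 and 44.1% to 51.0% in WT libraries. The TMM factor was 2.97 in mutant replicate 3, against 0.632 to 1.07 in the other 5 libraries, so its CPM depend most on the scaling. Erythrocyte transcripts summed to 2278 CPM there and to 173 to 351 CPM elsewhere. The oocyte and ovary list reached 483 CPM in mutant replicate 1, and 309 and 379 CPM in WT replicates 1 and 2, against 0.685 to 6.35 CPM in the other 3 libraries. The hepatocyte markers fabp10a, a liver fatty acid-binding protein, and tfa, transferrin, were abundant in all 6 libraries, at 3875 to 8505 CPM for fabp10a and 10452 to 28913 CPM for tfa. In bulk tissue, fewer cells of a type and less RNA per cell cannot be told apart.

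Among the 9 genes, nr5a5 was the one whose levels did not overlap between genotypes, with all mutant libraries below all WT libraries. Under TMM, 27.8% of all genes tested did not overlap in either direction, and 12.8% did so with mutants lower. Under TMM, the core factors hnf4a, foxa2 and foxa3 had group means close to each other. The genes cebpa and cebpb varied more among the WT libraries than between genotypes. The fit across all genes called 0 of the 8 tested members, against 31 of 12889 genes, which is 0.241%, with 0.116% higher and 0.124% lower in mutants (edgeR quasi-likelihood test, adjusted p under 0.05). At an unadjusted p under 0.05 there was 1 member, nr5a5, against 19.1% of all genes. DESeq2's Wald test called 1 member, again nr5a5, and 8.42% of all genes. Limma-voom called 0 members and 0.295% of all genes. The members were chosen by role and, for nr5a5, selected on its measured mutant and WT levels in these libraries, so these counts are a description and nothing is read from them. The median log2 fold change of the 8 tested members was -0.15, against 0.04 over all genes tested.

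**Figure D1:**
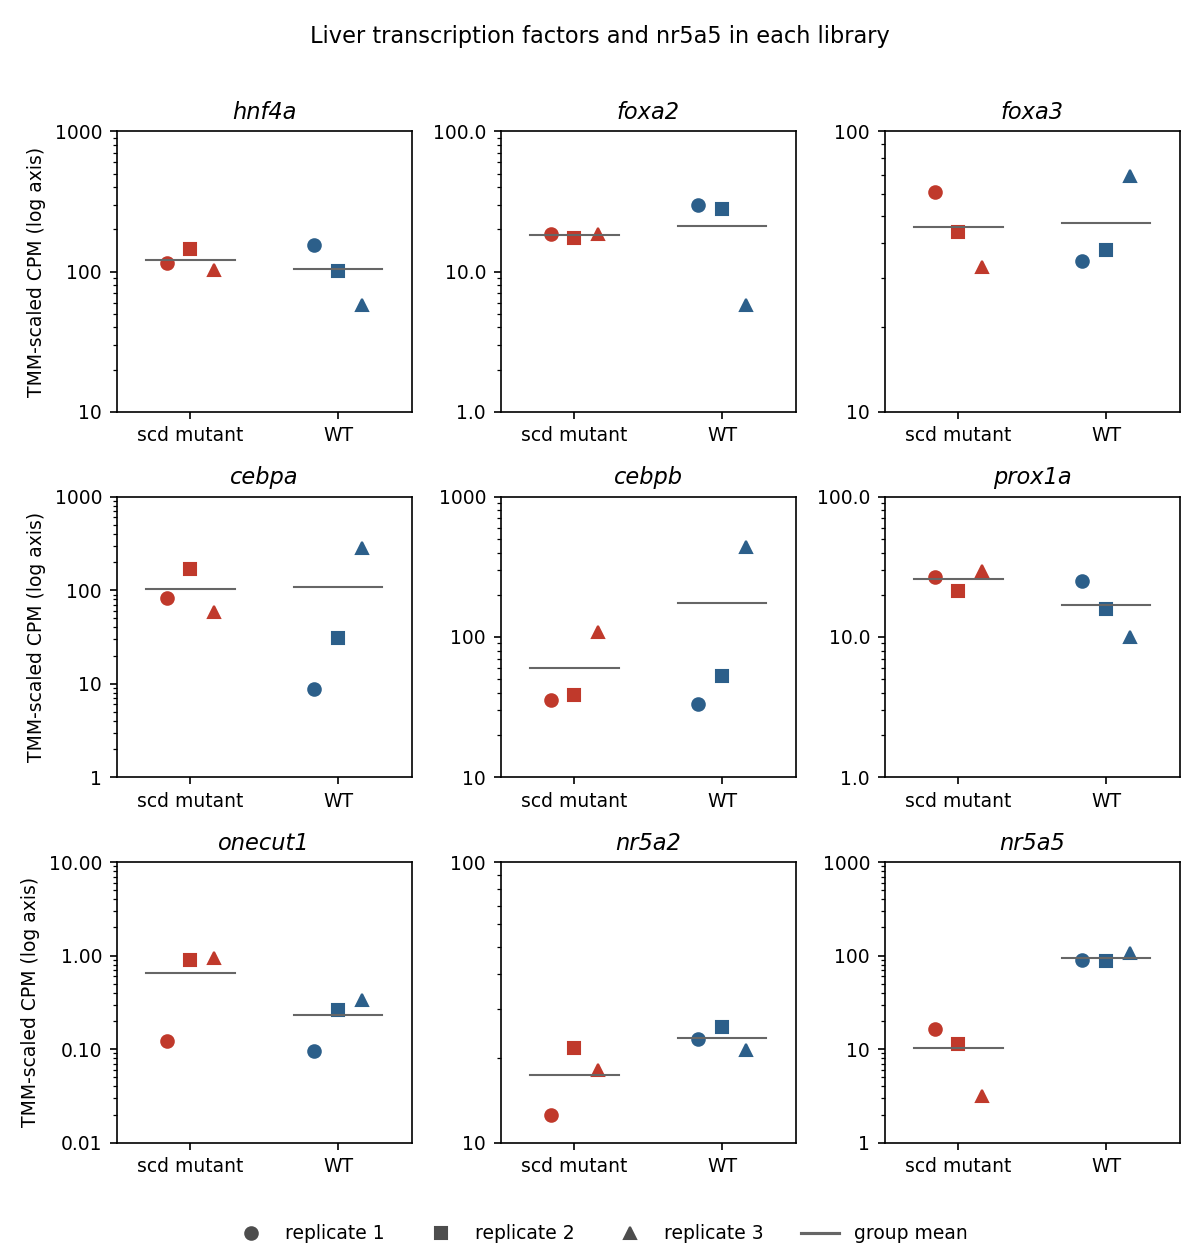
TMM-scaled CPM on log axes for each of the 9 genes, with mutant libraries in red on the left and WT libraries in blue on the right of each panel. Each symbol is 1 library, its shape gives the replicate number, and lines are group means over 3 libraries. The levels of nr5a5 lie at 3.17 to 16.6 CPM in mutant and 86.8 to 107 CPM in WT libraries, while the other genes overlap between groups. Of all genes tested, 27.8% did not overlap in either direction.

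The nuclear receptor nr5a5 had 16.6, 11.4 and 3.17 CPM in mutant replicates 1 to 3, against 89.3, 86.8 and 107 CPM in WT replicates 1 to 3. The means were 10.4 ± 6.78 CPM in mutant and 94.2 ± 10.8 CPM in WT livers (SD, n = 3 each). In the fit, the mutant to WT difference was -3.18 ± 0.589 on the log2 scale (SE). The WT libraries lay close together, and within the mutants replicate 3 was the lowest. Levels without overlap and lower in mutants were found for 12.8% of the genes tested.

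The raw counts of nr5a5 were 271, 278 and 222 in mutant libraries and 1859, 1657 and 1897 in WT libraries. As a share of all named counts, this came to 10.5, 12.2 and 9.33 per 1000000 in mutants and 82.5, 65.4 and 76.4 per 1000000 in WT. On that scale the mutant libraries lay within a 1.3-fold range of each other, against a 5.25-fold range under TMM, and the WT mean was 7.01 times the mutant mean. Mutant replicate 3 was the lowest library on both scales, by a wide margin under TMM and a narrow one as a share, and the gap between genotypes was present on both. On the share scale, 3.39% of the genes tested lay below WT in all mutant libraries without overlap.

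With 1 library left out, the log2 fold change of nr5a5 lay between -3.71 and -2.77. It was -2.77 ± 0.298 (SE) without mutant replicate 3, which nearly lacked vitellogenin. Of these 6 fits, that one called nr5a5, together with 0.161% of all genes, and the other 5 did not. As nr5a5 was selected on these values, nothing is read from that call. Among the 3 libraries with few oocyte transcripts, mutant replicates 2 and 3 against WT replicate 3, its log2 fold change was -3.89 ± 0.936. This last comparison was added after the data were seen, and its lone WT library is assumed to vary like the mutant ones.

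The related receptor nr5a2 gave a different picture. It had 12.5, 21.7 and 18.1 CPM in mutant replicates 1 to 3, against 23.5, 25.8 and 21.5 CPM in WT replicates 1 to 3. The groups overlapped narrowly, since mutant replicate 2 lay just above WT replicate 3, and the log2 fold change was -0.43 ± 0.277. With total counts it turned to 0.58, a setting that moved the all-gene median to 0.98, so that nr5a2 lay 0.40 below that median (-0.40 on the log2 scale).

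Because both receptors are counted in the same library, their ratio does not depend on scaling. It compares libraries, not the levels of the 2 genes, whose lengths were not used. There were 1.33, 0.527 and 0.175 counts of nr5a5 for each count of nr5a2 in mutant replicates 1 to 3, against 3.80, 3.36 and 4.97 in WT replicates 1 to 3. The mean log2 ratio was -1.01 ± 1.46 in mutants and 1.99 ± 0.288 in WT (SD, n = 3 each), a difference of -3.0, and the groups did not overlap. The ratio varied more among the mutants than among the WT libraries, and nr5a2 had 204, 528 and 1270 counts in mutants and 489, 493 and 382 counts in WT. No test is attached to these values, since nr5a5 is a gene chosen with its level known.

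**Figure D2:**
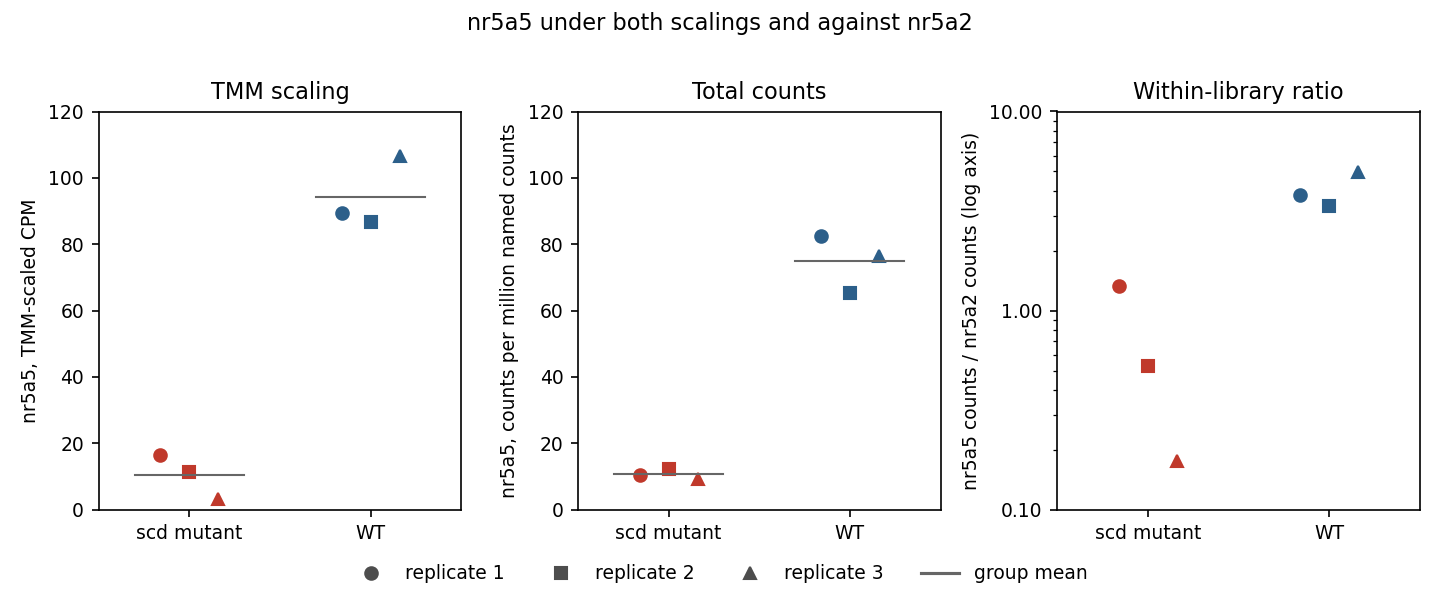
Level of nr5a5 in each library as TMM-scaled CPM (left) and as counts per 1000000 named counts (middle), and the ratio of nr5a5 to nr5a2 counts on a log axis (right), with mutants in red and WT in blue. Symbols are libraries, and lines in the left and middle panels are means of 3. Mutant replicate 3 stands at 3.17 CPM in the left panel and at 9.33 per 1000000 in the middle one, and in all panels the mutant libraries lie below the WT libraries.

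The remaining NR5A genes, nr5a1a and nr5a1b, related to the mammalian factor SF-1 of steroid-producing cells, were nearly absent. The gene nr5a1a had 0, 0 and 41 counts in mutant replicates 1 to 3 and 0 in each WT library. For nr5a1b the counts were 0, 0 and 2 in mutants and 0 in each WT library. Both were too low for the fit, and the counts of nr5a1a came from the mutant library that nearly lacked vitellogenin. The steroid import gene star, a target of NR5A factors in mammals, had 0, 0 and 7 counts in mutants and 10, 10 and 30 counts in WT libraries.

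The 5 genes whose log2 CPM most resembled that of nr5a5 over the 6 libraries had Pearson correlations of 0.992 to 0.995 with it, out of 8611 genes ranked. They were esyt2a, a tether between endoplasmic reticulum and plasma membrane, atp13a3, a transport ATPase, ern1, the endoplasmic reticulum stress sensor IRE1, dock6, an exchange factor for small GTPases, and a row that carries the name of the mitochondrial genome sequence in place of a gene name. Of the ranked genes, 504 correlated above 0.9 with nr5a5 and 7 above 0.99. The 6 libraries fall into 2 groups that the level of nr5a5 separates, so these correlations are a description. The level of ern1 was 13.1, 7.70 and 2.84 CPM in mutants and 42.7, 52.3 and 41.6 CPM in WT libraries, with a log2 fold change of -2.54 ± 0.530. That of esyt2a was 24.9, 21.5 and 11.8 CPM in mutants and 40.4, 44.3 and 47.0 CPM in WT. In both genes mutant replicate 3 was the lowest under TMM, as in nr5a5, which follows from their choice by likeness to it. As shares this did not hold. There ern1 had 8.24, 8.19 and 8.37 per 1000000 in mutant replicates 1 to 3, and esyt2a had 15.7, 22.9 and 34.9. For esyt2a the groups overlapped as shares, with 37.3, 33.4 and 33.7 per 1000000 in WT replicates 1 to 3.

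The central hepatocyte receptor gene hnf4a had 115, 145 and 102 CPM in mutant replicates 1 to 3, against 154, 101 and 58.1 CPM in WT replicates 1 to 3. Under TMM, the mutant range lay inside the WT range. As shares of all named counts, the mutants had 72.5, 154 and 301 per 1000000, against 142, 76.4 and 41.6 in WT. On that scale mutant replicates 2 and 3 lay above all WT libraries. The means were 121 ± 22.0 CPM in mutants and 105 ± 48.1 CPM in WT (SD, n = 3 each), and the log2 fold change was 0.21 ± 0.411 (edgeR, adjusted p = 0.818). Its direction turned without WT replicate 3, the lowest library, to -0.09. With total counts the log2 fold change was 1.02, under the shift of 0.98 in all genes.

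The pioneer factor gene foxa2 was nearly the same in the mutants, at 18.4, 17.3 and 18.6 CPM, against 30.0, 28.0 and 5.79 CPM in WT replicates 1 to 3. The highest mutant level was 1.07 times the lowest, a narrower spread than that of 98.8% of the genes compared. In WT the same quotient was 5.18, a wider spread than in all but 4.16% of genes. The mutants thus lay between WT replicate 3 and the other WT libraries, and the log2 fold change of -0.23 ± 0.549 changed sign with several settings. On the share scale the mutants were not alike, at 11.6, 18.4 and 54.9 per 1000000.

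Its relative foxa3 stood in the reverse order among WT libraries. The levels were 60.7, 43.7 and 32.8 CPM in mutant replicates 1 to 3, against 34.5, 37.7 and 69.0 CPM in WT replicates 1 to 3. The groups overlapped, with a log2 fold change of -0.04 ± 0.380. For each count of foxa3 there were 0.304, 0.397 and 0.568 counts of foxa2 in mutants and 0.869, 0.744 and 0.0839 in WT libraries, so WT replicate 3 was the lowest of the 6 and the other WT libraries the highest. This quotient does not depend on scaling.

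The factor genes cebpa and cebpb had the widest spread of the 9 among WT libraries. The gene cebpa had 82.2, 167 and 58.6 CPM in mutant replicates 1 to 3, against 8.83, 30.9 and 283 CPM in WT replicates 1 to 3. All mutant levels lay between those of WT replicate 3 and the other WT libraries. The highest WT level was 32.0 times the lowest, and 0.697% of genes had a wider WT spread. In mutants that quotient was 2.85.

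For cebpb the levels were 35.4, 38.5 and 108 CPM in mutant replicates 1 to 3 and 33.2, 52.6 and 435 CPM in WT replicates 1 to 3. Under TMM, WT replicate 3 was the highest library and mutant replicate 3 the next. As shares of all named counts, mutant replicate 3 was the highest, at 318 per 1000000, against 312 in WT replicate 3. The mean share was 127 per 1000000 in both groups. The log2 fold change was -1.52 ± 1.04 for cebpb and -0.07 ± 1.17 for cebpa (edgeR, adjusted p = 0.459 and 0.980). With total counts the value of cebpb was 0.0027, under the shift of 0.98 in all genes, or -0.98 relative to that median. Under TMM, both log2 fold changes rested on WT replicate 3. Without it, the log2 fold change of cebpa was 2.35 ± 0.739 and that of cebpb 0.48 ± 0.584, with adjusted p = 0.243 and 0.708. Another C/EBP gene, cebpd, was chosen after its values were seen. It had 25.4, 21.3 and 98.0 CPM in mutants and 66.0, 84.8 and 233 CPM in WT libraries. WT replicate 3 was again the highest under TMM.

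The balance of the C/EBP genes within a library also varied. There were 0.430, 0.230 and 1.84 counts of cebpb for each count of cebpa in mutant replicates 1 to 3, against 3.76, 1.70 and 1.54 in WT replicates 1 to 3. Mutant replicates 1 and 2 lay below all WT libraries and mutant replicate 3 among them. The mean log2 ratio was -0.82 ± 1.54 in mutants and 1.1 ± 0.704 in WT (SD, n = 3 each).

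The homeobox gene prox1a was the tested member with the largest positive difference. It had 27.0, 21.3 and 29.4 CPM in mutant replicates 1 to 3, against 24.9, 15.7 and 9.95 CPM in WT replicates 1 to 3. Only WT replicate 1 reached into the mutant range, and the log2 fold change was 0.62 ± 0.365 (edgeR, adjusted p = 0.395). It was positive in all 17 alternatives run, from 0.34 to 1.59. As prox1a also marks lymphatic endothelium, markers of endothelial and lymphatic cells are given beside it. They summed to 76.2, 59.0 and 84.6 CPM in mutant replicates 1 to 3 and 98.4, 83.7 and 105 CPM in WT replicates 1 to 3, with 2 of the 18 tested markers above WT in their fitted value. The vessel receptor gene kdrl, the most abundant of them, was at 26.6, 22.2 and 29.1 CPM in mutants and 40.1, 30.7 and 36.1 CPM in WT. The lymphatic gene lyve1b was near absence, at 0, 0 and 0.314 CPM in mutants and 0.0960, 0 and 0.112 CPM in WT. With total counts, 13 of the 18 markers were positive, with a median of 0.58 under the shift of 0.98 in all genes. The part of these cells in the prox1a values was not tested.

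The gene onecut1, known in mouse as a factor of hepatoblasts and bile ducts, was barely detected. It had 2, 22 and 66 counts in mutant replicates 1 to 3 and 2, 5 and 6 counts in WT replicates 1 to 3. In CPM this was 0.123, 0.905 and 0.941 in mutants and 0.0960, 0.262 and 0.337 in WT, so mutant replicates 2 and 3 lay above the other 4 libraries. Without a filter its log2 fold change was 1.5 ± 0.918 (edgeR, adjusted p = 0.483). The bile duct list reached 781, 826 and 2552 CPM in mutant replicates 1 to 3 and to 805, 1048 and 1311 CPM in WT replicates 1 to 3, with the bile duct and epithelial keratin gene krt8 at 253, 318 and 1101 CPM in mutants and 268, 368 and 538 CPM in WT. The part of these cells in the onecut1 values was not tested.

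Under TMM, WT replicate 3 held the highest or the lowest level of 7 of the 9 genes, the highest of foxa3, cebpa, cebpb and nr5a5 and the lowest of hnf4a, foxa2 and prox1a. Over all genes tested, this library was at an end of the range for 32.8%. The 9 include onecut1, which was not tested, and nr5a5, selected on its mutant and WT levels, so these counts are a description. As shares of all named counts, WT replicate 3 was at an end for 4 of the 9 genes, cebpa, hnf4a, foxa2 and prox1a. Over all genes tested, this library was at an end of the share range for 30.0%. It was the WT library with few oocyte transcripts, at 6.35 CPM for that list against 309 and 379 CPM in WT replicates 1 and 2, and its macrophage and neutrophil markers summed to 72.6 CPM against 29.0 and 30.5 CPM. Neither trait was its alone among the 6 libraries. The macrophage and neutrophil markers summed to 28.4, 20.2 and 98.6 CPM in mutant replicates 1 to 3, and mutant replicates 2 and 3 also had few oocyte transcripts. The part of either marker list in the levels of WT replicate 3 was not tested.

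Other liver transcription factors gave no call. Of 45 listed, 42 were in the table and 33 were tested, with 0 called by edgeR, 8 at an unadjusted p under 0.05, 0 called by limma-voom and 5 by DESeq2, of which 4 were higher. Here and in the lists that follow, the matching share of all genes at an unadjusted p under 0.05 was 19.1%. DESeq2 called 8.42% of all genes and limma-voom 0.295%. The median log2 fold change was -0.15, with 15 positive and 18 negative values. The receptor gene nr1h5, which belongs to the family of the bile acid receptor FXR, had 10.5, 7.32 and 14.2 CPM in mutants and 22.7, 42.2 and 45.5 CPM in WT (log2 fold change -1.78 ± 0.379, edgeR adjusted p = 0.0914). The orphan receptor genes of the COUP-TF family nr2f2 and nr2f6b stood the other way. The level of nr2f2 was 3.49, 11.9 and 20.5 CPM in mutants and 2.54, 3.25 and 2.53 CPM in WT, and that of nr2f6b was 2.33, 7.90 and 18.2 CPM in mutants and 2.21, 1.31 and 1.46 CPM in WT. None of these 3 genes overlapped between groups under TMM, but all 3 overlapped as shares of all named counts. For nr2f2 and nr2f6b the highest level was in mutant replicate 3. Under TMM, levels without overlap in either direction were found for 27.8% of genes.

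The transcripts that these factors are known to drive were also examined. Of 34 tested hepatocyte transcripts, edgeR called 0, with 3 at an unadjusted p under 0.05, while limma-voom called 0 and DESeq2 2, of which 1 was higher. Their median log2 fold change was -0.43, with 27 of 34 negative. With total counts it was 0.43, under the shift of 0.98 in all genes, so that the list lay below the median of all genes on both scales. Under TMM, 6 genes of the list lay below WT without overlap and 3 above, against 12.8% and 15.1% of all genes. The genes named next, ttr and asl, lay above WT, unlike most of the list. The thyroid hormone carrier ttr stood at 85.5, 105 and 114 CPM in mutants and 66.0, 30.2 and 41.0 CPM in WT libraries, without overlap under TMM but with overlap as shares. The arginine synthesis gene asl was low, at 1.90, 0.823 and 2.04 CPM in mutants and 0.576, 0.786 and 0.281 CPM in WT.

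Of the genes known in mammals as HNF4A targets, edgeR called 0 of 25 tested, with 4 at an unadjusted p under 0.05, while limma-voom called 0 and DESeq2 4, of which 2 were higher. The median log2 fold change was -0.40, with 7 positive and 18 negative values. The gene named next lay above WT, unlike most of the list. The apolipoprotein gene apoa4a had 0.919, 3.21 and 18.3 CPM in mutants and 0.192, 0.0524 and 0.112 CPM in WT libraries, without overlap (log2 fold change 5.92 ± 1.31, edgeR adjusted p = 0.105). Its WT levels were near absence, so the size of this difference is uncertain. The highest level was again in mutant replicate 3.

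Genes known in mammals as C/EBP and FOXA targets lay mostly below WT without passing the test. The median of 14 tested C/EBP targets was -1.02. EdgeR called 0 of them, 4 had an unadjusted p under 0.05, DESeq2 called 4, all lower, and limma-voom 0. The median of 10 tested FOXA targets was -0.73. EdgeR called 0 of them, 5 had an unadjusted p under 0.05, DESeq2 called 4, with 1 up and 3 down in mutants, and limma-voom 0. The lists share genes, so they are not separate evidence, and total counts moved their medians to -0.29 and 0.08 under the shift of 0.98.

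The glucose-6-phosphatase gene g6pca.2 stood at 1038, 552 and 696 CPM in mutants and 2147, 3321 and 5377 CPM in WT replicates 1 to 3, without overlap under TMM but with overlap as shares (log2 fold change -2.25 ± 0.578, edgeR adjusted p = 0.123). The gluconeogenic gene pck1 stood at 1588, 634 and 244 CPM in mutants and 1377, 4351 and 8806 CPM in WT. Here the groups overlapped, since mutant replicate 1 lay above WT replicate 1. The arginase gene arg2 stood at 103, 111 and 81.1 CPM in mutants and 87.6, 222 and 820.5 CPM in WT.

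In WT libraries replicate 3 was highest, replicate 2 next and replicate 1 lowest for cebpa, cebpb, g6pca.2, pck1, arg2, tat, cyp7a1, igfbp1a and igfbp1b. The tyrosine breakdown gene tat was at 930, 1963 and 3767 CPM and the insulin-like growth factor binding gene igfbp1a at 11.3, 89.0 and 2560 CPM in WT replicates 1 to 3. This WT order was found for 7 of the 14 tested C/EBP targets and 4 of the 10 tested FOXA targets, lists that share tat and pck1, and for 20.6% of all genes. As shares it was found for 6 of 14, 4 of 10 and 10.2%. In mutants the order differed. There cebpa was highest in replicate 2, and pck1 and tat in replicate 1, with tat at 941, 180 and 71.6 CPM and igfbp1a at 9.01, 5.76 and 35.2 CPM. This comparison of orders, and igfbp1a in it, was chosen after the values were seen. With 3 libraries in a group, an order is a description only.

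**Figure D3:**
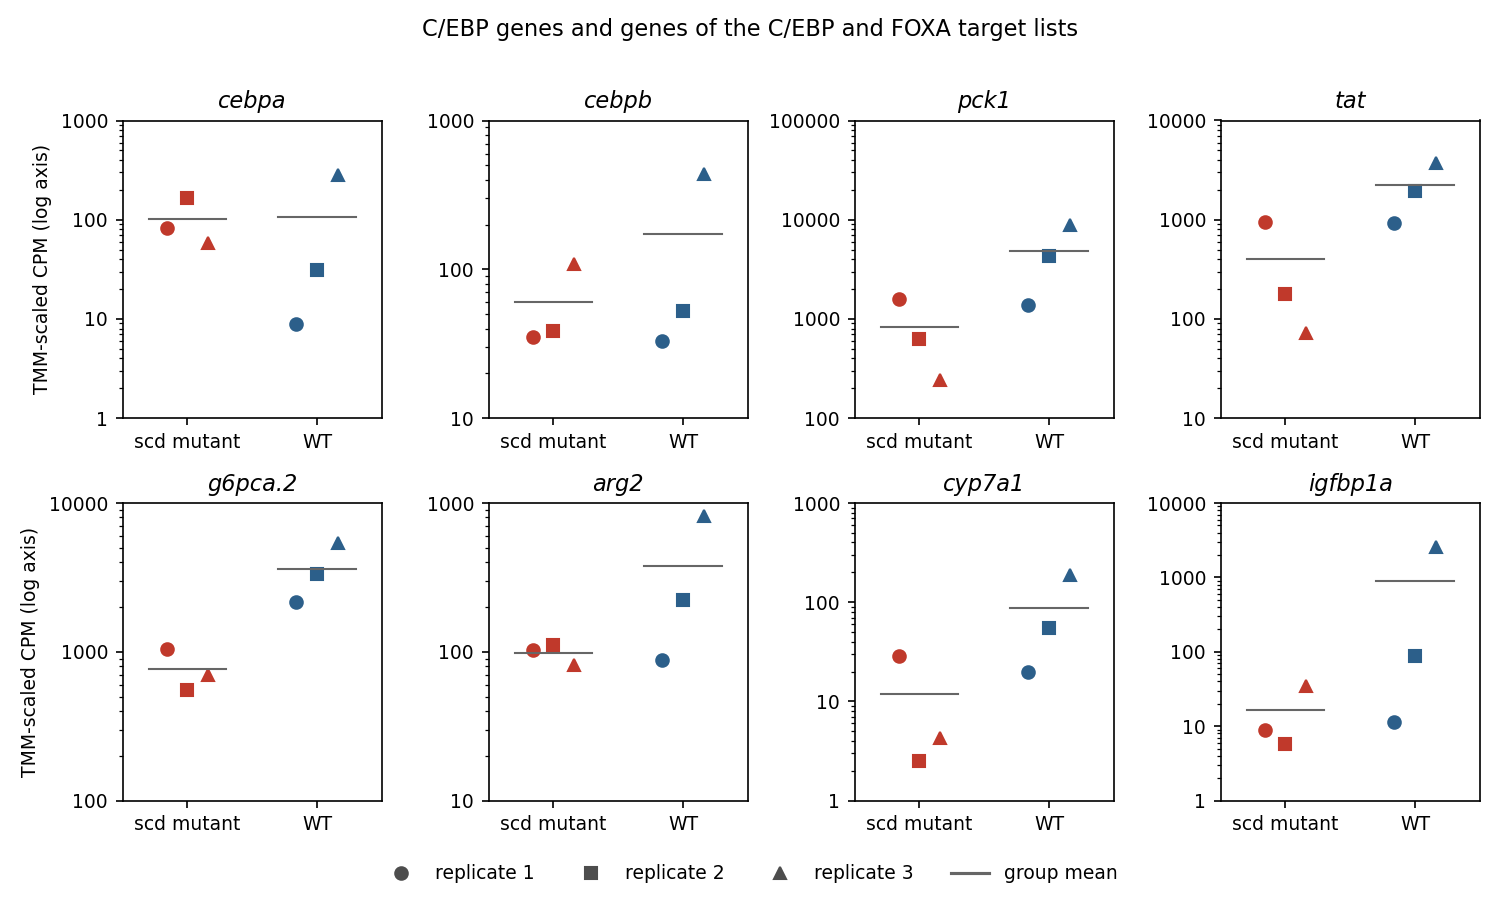
TMM-scaled CPM on log axes of cebpa, cebpb and 6 genes of the C/EBP and FOXA target lists in each library, with mutants in red on the left and WT in blue on the right. Lines are means of 3 libraries. In WT, replicate 3 is the highest library in all 8 panels, from 187 CPM for cyp7a1 to 8806 CPM for pck1. The panels show genes with WT levels rising from replicate 1 to 3. That order was found for 7 of 14 tested C/EBP targets, 4 of 10 tested FOXA targets and 20.6% of all genes. In mutants the highest library differs from gene to gene.

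The insulin-like growth factor binding gene igfbp1b, a FOXA target in mammals, stood at 1.23, 0.823 and 1.2 CPM in mutants and 10.7, 21.0 and 165 CPM in WT libraries, without overlap (log2 fold change -5.91 ± 1.2, edgeR adjusted p = 0.0916). As shares of all named counts, the mutants had 0.774, 0.876 and 3.53 per 1000000, against 9.86, 15.8 and 118 per 1000000 in WT, so mutant replicate 3 was level with the other mutants under TMM only, and the groups were apart on both scales.

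Genes known in mammals as targets of NR5A receptors had a median log2 fold change of -0.33, with 4 positive and 8 negative values, from -2.89 to 1.75. Of 12 tested, edgeR called 0, with 1 at an unadjusted p under 0.05. DESeq2 called 1, which was lower, and limma-voom 0. When libraries were scaled by total counts, the median of these targets became positive, at 0.38, where that of all genes was 0.98. A fit with the oocyte transcript covariate put it at -0.07, with 6 positive and 6 negative values. The genes named next all had negative fitted values, so they do not stand for the whole list. The rate-limiting bile acid synthesis gene cyp7a1 stood at 28.6, 2.51 and 4.29 CPM in mutants and 19.8, 54.7 and 187 CPM in WT libraries, with mutant replicate 1 above WT replicate 1. The cholesteryl ester transfer gene cetp was at 90.4, 35.6 and 88.4 CPM in mutants and 135, 166 and 164 CPM in WT, without overlap under TMM but with overlap as shares (log2 fold change -1.11 ± 0.416, edgeR adjusted p = 0.218). The apolipoprotein gene apoa1a was at 638, 614 and 648 CPM in mutants and 1021, 1643 and 774 CPM in WT. The repressor gene nr0b2a, a direct target of NR5A2 in mammals that was chosen after its values were seen, had a log2 fold change of -0.93 ± 0.607.

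As NR5A2, FOXA and HNF4A factors are also made by pancreas in mammals, its transcripts are given beside them. The pancreas list summed to 761, 551 and 831 CPM in mutant replicates 1 to 3 and 232, 3088 and 2803 CPM in WT replicates 1 to 3. WT replicate 1 had far fewer pancreas transcripts than the other WT libraries. The part of pancreas in the members' levels was not tested. The trypsin gene prss59.1, the most abundant of the list, was at 128, 91.7 and 161 CPM in mutants and 17.5, 443 and 366 CPM in WT. The pancreas factor gene ptf1a was at 0, 0 and 0.0428 CPM in mutants and 0, 0.157 and 0.0562 CPM in WT.

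The fitted differences of the members were then set side by side across 17 alternatives. The values of nr5a5 ran from -3.71 to -2.77 and those of prox1a from 0.34 to 1.59, without a change of sign. The 1.59 was with total counts, under a shift of 0.98 in all genes. The alternatives reuse the same libraries, so an unchanged sign is not separate evidence. The values of hnf4a, foxa2, foxa3, cebpa, cebpb and nr5a2 lay on both sides of 0, and 0 of these genes was called in any of them.

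**Figure D4:**
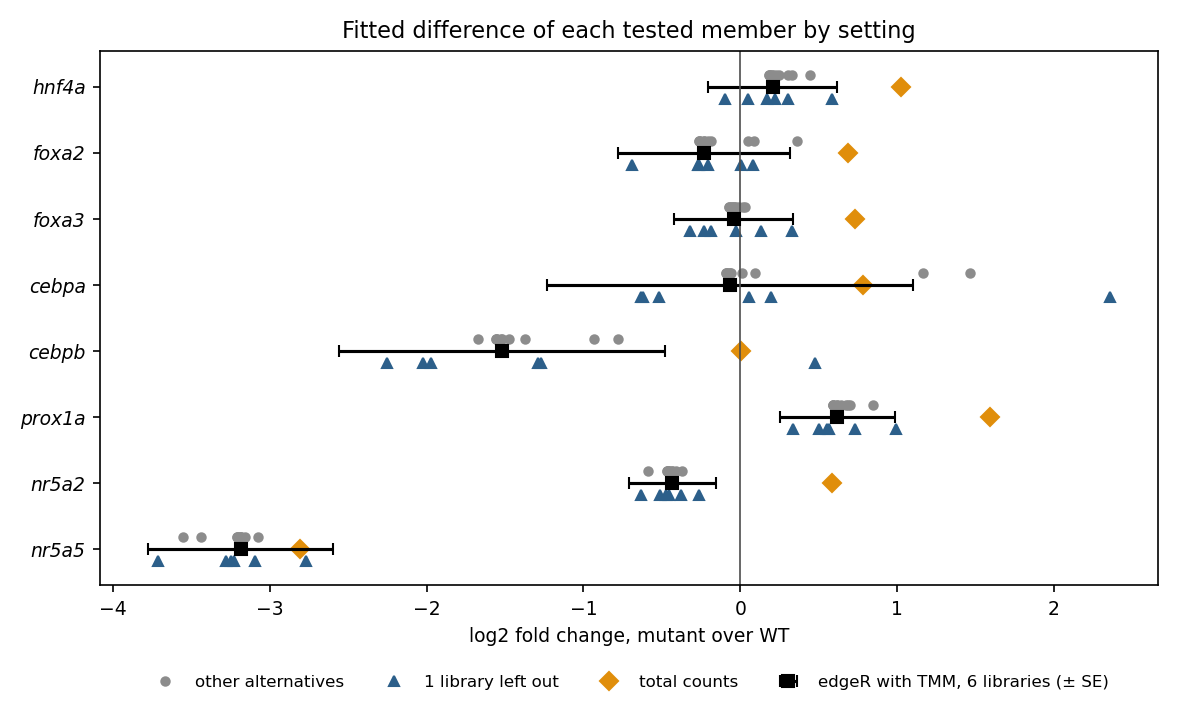
Log2 fold change, mutant over WT, of the 8 tested members under edgeR with TMM in 6 libraries (black squares with standard error), with total counts (orange), with 1 library left out (blue triangles) and under the other alternatives (grey). Total counts place every member but nr5a5 at or above 0, under a shift of 0.98 in all genes. The values of nr5a5 lie between -3.71 and -2.77.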

How the data were processed

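Raw counts of reads for each gene symbol in 6 liver libraries were deposited by the authors in 1 table. Trimmomatic 0.36, STAR 2.7, featureCounts 1.5.2 and the build GRCz11 are named, per the submitters' processing notes. The sources used here do not say whether strand was used or how reads with several alignments were treated, so counts of related copies or overlapping genes are uncertain. The 1 row without a gene name, 0.568% to 1.02% of a library's counts, was left out.

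Counts were tested with edgeR 4.0.16 in R 4.3.3 (filterByExpr, TMM, robust quasi-likelihood test), mutant over WT. P-values were adjusted over all genes by Benjamini-Hochberg, and an adjusted p under 0.05 was called. Standard errors were taken from the log2 fold change and the F statistic. Ratios used a pseudocount of 0.5 on the log2 scale. The fit was tested on simulated data. Alternatives included DESeq2 1.42.0 and limma-voom 3.58.1. Gene order came from RefSeq (assembly GRCz12tu).

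The members and lists were chosen with earlier results of these data known. Genes named are the members, scd, up to 3 genes of each list by p, the most abundant gene of a marker list, and the 5 genes most like nr5a5 with a mean log2 CPM above 1. Others were chosen after their values were seen. No sequences are shown, as the tables used here held none.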

Additional observations from a re-analysis of the deposited data

How the results depend on the processing

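Called genes numbered 31 in all, 0.241% of those tested, and 0 among the 8 tested members. With total counts they were 467, or 3.62%, and 1. Without a filter beyond 1 count they were 211, or 0.912%, and 1 of the 9 members tested there. DESeq2 called 1085, or 8.42%, and 1. Total counts without mutant replicate 3, added after the data were seen, gave 162, or 1.24%, and 1. The member was nr5a5 each time. The oocyte covariate gave 49 calls, or 0.38%. With 1 library left out, calls ran from 2 to 77 in all, 0.0147% to 0.55% of the genes tested, and from 0 to 1 among members. Reversed values, as log2 fold changes, were as follows. With total counts they were 0.68 for foxa2, 0.73 for foxa3, 0.78 for cebpa, 0.0027 for cebpb and 0.58 for nr5a2. Upper-quartile factors gave 0.016 for foxa3 and 0.014 for cebpa. Limma-voom gave 0.086 for foxa2, 0.032 for foxa3 and 1.17 for cebpa. The oocyte covariate gave 0.36 for foxa2 and 0.093 for cebpa, and total counts without mutant replicate 3 gave 0.21 for foxa3 and 0.56 for cebpa. The comparison of the 3 libraries with few oocyte transcripts, also added after the data were seen, gave 1.58 for foxa2. With 1 library left out, values ran from -0.095 to 0.58 for hnf4a, -0.69 to 0.080 for foxa2, -0.32 to 0.33 for foxa3, -0.63 to 2.35 for cebpa and -2.25 to 0.48 for cebpb. The causes were not tested. Same-numbered mutant and WT libraries deviated from their group means with correlations of 0.30, -0.21 and 0.32. With 3 libraries in a group, these values cannot show whether the numbers pair the samples. With the replicate block, 2 genes, or 0.0155%, and 0 members were called, and the values of foxa2 and cebpa turned to 0.050 and 1.46. With 1 library left out, the mutant minus WT log2 ratio ran from -3.71 to -2.25 for nr5a5 to nr5a2, from -2.76 to -1.27 for cebpb to cebpa and, added after the data were seen, from -0.97 to 0.71 for foxa2 to foxa3. These moves were under the pooled SD of both groups, but those of nr5a5 to nr5a2 and cebpb to cebpa went past the WT SD. Depth limits onecut1, nr5a1a and nr5a1b.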

Other observations

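In the gene order of RefSeq's assembly GRCz12tu, the tested genes next to nr5a5 are camsap3, a microtubule minus-end protein, and soul5. The log2 fold change was -1.22 ± 0.325 for camsap3, with means of 1.55 CPM in mutants and 3.63 CPM in WT, and 1.19 ± 0.918 for soul5, with 4.04 CPM in mutants and 1.80 CPM in WT. Of the 20 nearest tested genes, 10 on each side, 11 had negative and 9 positive values, from -1.22 to 1.19, and edgeR called 0 (smallest adjusted p = 0.129).

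The factor gene onecutl, of the same family as onecut1, had 43.6, 1.4 and 1.54 CPM in mutant replicates 1 to 3 and 56.3, 52.8 and 30.0 CPM in WT replicates 1 to 3. Mutant replicate 1 lay with the WT libraries and the other mutants far below. The oocyte list summed to 483, 2.1 and 0.685 CPM in mutant replicates 1 to 3 and 309, 379 and 6.35 CPM in WT replicates 1 to 3, and its part in the onecutl values was not tested.

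In the intestine marker list, edgeR called 1 of 6 tested genes, against 0.241% of all genes. This was fabp2, an intestinal fatty acid-binding protein gene, at 16.7, 8.52 and 7.84 CPM in mutants and 76.3, 143 and 115 CPM in WT libraries. It went against the rest of the list, in which the other 5 tested genes had positive fitted values. The median log2 fold change of the list was 1.51. DESeq2 called 3 of its genes, 2 higher and 1 lower, and 8.42% of all genes. Limma-voom called 1 gene of the list and 0.295% of all genes. With edgeR, the list held 0 calls with the replicate block and in 5 of the 6 fits that left out 1 library, the exception being that without mutant replicate 1. The lists of macrophage and neutrophil, endothelial, bile duct, pancreas, oocyte, erythrocyte and vitellogenin genes held 0 calls by edgeR. Tested in them were 10, 18, 13, 23, 19, 8 and 7 genes, in that order. Of these, 0, 1, 4, 3, 0, 0 and 0 had an unadjusted p under 0.05, against 19.1% of all genes. The egg coat gene zp3.2 was at 123, 0.165 and 0.057 CPM in mutants and 83.2, 109 and 0.731 CPM in WT. The globin gene hbba1 was at 137, 99.7 and 1219 CPM in mutants and 86.1, 158 and 228 CPM in WT. The macrophage receptor gene marco was at 7.05, 7.2 and 37.8 CPM in mutants and 3.41, 3.77 and 16.4 CPM in WT. It does not stand for its list, which had 5 positive and 5 negative fitted values and a median of 0.05. Without mutant replicate 3, that list had 1 positive and 9 negative values. DESeq2 called 0, 0, 1, 3, 0, 0 and 0 genes of these lists, in the same order, and limma-voom 0 in each. The matching shares of all genes were 8.42% and 0.295%.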
